A study of Mus musculus with 78 samples.

Results

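The genes described here encode the apolipoproteins of the liver: Apoa1, Apoa2, Apoa4, Apoa5, Apob, Apoc1, Apoc2, Apoc3, Apoe and Apom. Each was sought by its exact symbol among the probe sets of an Affymetrix mouse gene array, which gave 9 of the 10 genes, out of 19938 genes with a symbol of their own. The probe set for Apoc2 carries 2 symbols, so no value is given for it. Each of the other 9 genes had 1 probe set.

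Liver RNA of 78 female mice was measured, 1 array per mouse, in 18 groups. The age series came from crosses of heterozygotes of BALB/cNctr-Npc1m1N/J and held Npc1-/- mice and Npc1+/+ littermates, with 4 mice of each genotype at 6 ages: 1 and 3 weeks, 5 and 7 weeks, and 9 and 11 weeks. The labels call the Npc1-/- mice pre-symptomatic at 1 and 3 weeks and post-symptomatic from 5 weeks, and the Npc1+/+ mice asymptomatic. The 12-week set held BALB/cJ mice, 5 per group: untreated, fasted overnight, given a control antisense oligonucleotide, given an antisense oligonucleotide against Npc1, and each oligonucleotide together with N-acetyl-cysteine (NAC), an antioxidant. Oligonucleotides (oligos) and NAC were started at 8 weeks of age and continued for 4 weeks, and the groups given the Npc1 oligo are labelled symptomatic. The Npc1-/- mice carry their mutation in every cell from conception, whereas the oligo was given to adult wild-type mice, and both models were read in whole liver, in which fewer cells of a type and less RNA per cell cannot be told apart.

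Apolipoproteins are the protein part of lipoproteins, the particles that carry cholesterol and triglycerides in blood. Apob is the structural protein of the particles that leave the liver and gut with triglyceride, Apoa1 and Apoa2 are the main proteins of high-density lipoprotein, and the smaller exchangeable apolipoproteins decide how fast particles lose triglyceride and are taken up. Npc1 moves cholesterol out of late endosomes and lysosomes, where lipoproteins taken up by receptors are broken down, and its loss causes Niemann-Pick disease type C, in which cholesterol accumulates there.

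In the RefSeq gene order, 4 of the genes lie side by side on chromosome 9 in the order Apoa1, Apoc3, Apoa4 and Apoa5, with no other protein-coding gene between them. Apoc1 and Apoe are neighbours on chromosome 7, and Apoa2, Apob and Apom lie on chromosomes 1, 12 and 17. The chromosome 9 genes behaved differently from one another in these mice, so the 250 bases before the RefSeq start site are shown for the 3 of them that had an entry, 5′ to 3′ on the gene's strand, build GRCm38.p6. Capitals mark matches to 4 short motifs: AGGTCA (a nuclear receptor half-site), CACGTG (an E-box) and TGACG (the core of a cyclic AMP response element), searched on both strands, and TATAAA (the TATA box core), searched on the gene's strand. No motif contains another.
Apoa1, chr9:46228380-46228629, plus strand: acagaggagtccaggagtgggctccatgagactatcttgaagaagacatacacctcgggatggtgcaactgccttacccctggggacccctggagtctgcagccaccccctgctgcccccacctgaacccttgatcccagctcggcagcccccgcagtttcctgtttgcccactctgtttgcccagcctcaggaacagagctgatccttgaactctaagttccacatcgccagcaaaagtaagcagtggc
Apoa4, chr9:46240594-46240843, plus strand: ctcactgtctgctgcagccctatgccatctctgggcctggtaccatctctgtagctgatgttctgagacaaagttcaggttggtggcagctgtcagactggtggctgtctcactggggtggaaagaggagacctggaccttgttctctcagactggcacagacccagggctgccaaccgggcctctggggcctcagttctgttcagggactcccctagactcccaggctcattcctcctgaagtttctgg
Apoa5, chr9:46268358-46268607, plus strand: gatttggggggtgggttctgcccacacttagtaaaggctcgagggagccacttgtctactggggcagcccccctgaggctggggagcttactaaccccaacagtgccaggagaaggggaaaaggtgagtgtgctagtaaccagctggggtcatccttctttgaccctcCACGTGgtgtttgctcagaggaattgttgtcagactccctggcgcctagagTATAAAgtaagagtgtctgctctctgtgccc
Apoa5 has 2 start sites in the table. The window of the first, shown here, held TATAAA at position -31 and CACGTG at position -82; from the second start site the same letters lie at -56 and -107, and the Apoa1 and Apoa4 windows held none of the 4. Over 32851 RefSeq promoter windows of the same length, TATAAA was found in 7.59%, CACGTG in 6.02%, AGGTCA in 14% and TGACG in 17.8%. These matches describe the letters of the windows only.

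The labels and tissue were checked first. Npc1 was lower in Npc1-/- than in Npc1+/+ mice at every age (log2 difference from -1.72 to -1.11, limma adjusted p at most 1.96e-06), and lower with the Npc1 oligo than with the control oligo (-2.97 ± 0.15, SE, 5 mice per group, limma adjusted p = 7.83e-15). NAC itself went with lower Npc1 under the control oligo (-1.03 ± 0.15, adjusted p = 6.05e-05). The mean of 7 hepatocyte markers lay between 12.65 and 13.21 in every mouse, and differed between groups in the comparisons named below. Signal of other organs was strongest in 3 arrays of the age series: the mean of 8 skeletal muscle markers was 9.16 in 1-week Npc1-/- mouse 3, and the mean of 6 exocrine pancreas markers was 9.12 and 9.07 in 3-week Npc1+/+ mice 1 and 2. Lesser signal, with a mean over 6, was seen in 7 further arrays for pancreas (6.16 to 6.91, against a median of 5.00 over all mice) and in 1 for muscle (6.64, median 5.47). Some of the results that rest on the 3 strongest arrays are also given without them, where stated, and each array was left out in turn. All levels below are deposited log2 values, and those of the 9 genes lay between 9.54 and 13.72 in a table whose highest value was 14.6. Differences are between group means on the log2 scale, ± SE, from limma's moderated test with Benjamini-Hochberg adjustment over all genes tested, called at an adjusted p under 0.05. Nothing in the labels says more of the replicates than that they are separate mice.

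Apoa4, an apolipoprotein of chylomicrons and high-density lipoprotein that the mouse makes in both intestine and liver, was the gene of the family that moved most. It was higher in Npc1-/- mice at all 6 ages and higher with the Npc1 oligo in both oligo comparisons, by 1.90-fold to 3.91-fold. At 1 week its levels were 11.50, 12.03, 12.62 and 12.11 in Npc1-/- mice and 11.14, 10.28, 9.54 and 10.16 in Npc1+/+ mice. At 3 weeks they were 12.33, 12.25, 12.68 and 12.18 against 10.52, 10.31, 10.26 and 10.48. The genotypes did not overlap at either age, when the labels still call the mice pre-symptomatic. At 5 weeks Apoa4 stood at 11.51, 11.89, 12.38 and 11.91 in Npc1-/- mice against 10.81, 11.21, 10.93 and 10.68. At 7 weeks the levels were 11.76, 11.63, 11.96 and 11.75 against 10.56, 10.43, 11.18 and 11.21. From 3 to 5 and 7 weeks the Npc1+/+ mean went from 10.39 to 10.91 and 10.84. Over the same ages the Npc1-/- mean went from 12.36 to 11.92 and 11.77. These changes were not tested, and every Npc1-/- mouse still lay above the Npc1+/+ mice of its age. At 9 weeks the values were 12.31, 11.90, 11.92 and 12.16 against 10.95, 10.95, 11.04 and 11.22, and at 11 weeks 12.42, 12.30, 12.13 and 12.25 against 10.46, 11.34, 11.11 and 10.86.

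In the youngest mice Apoa4 was higher in Npc1-/- mice by 1.79 ± 0.22 (1 week, adjusted p = 1.41e-07) and 1.97 ± 0.22 (3 weeks, adjusted p = 4.78e-09). In the middle ages the genotypes differed by 1.02 ± 0.22 (5 weeks, adjusted p = 0.00072) and 0.93 ± 0.22 (7 weeks, adjusted p = 0.00094). In the oldest mice the difference was 1.03 ± 0.22 (9 weeks, adjusted p = 0.00021) and then 1.33 ± 0.22 (11 weeks, adjusted p = 2.2e-06), always with 4 mice per genotype. Averaged over the ages with equal weight it was 1.34 ± 0.09 (adjusted p = 3.13e-17), or 2.54-fold. The size of the difference varied between ages (moderated F test, adjusted p = 0.020), with its highest values at 1 and 3 weeks. Without the 3 arrays that held muscle or pancreas signal, that test gave an adjusted p of 0.073, whereas the averaged difference was called in all of the 58 alternatives run.

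With the Npc1 oligo, Apoa4 was 12.58, 12.09, 12.68, 12.49 and 12.65, against 10.83, 10.90, 10.53, 11.04 and 10.67 with the control oligo. With NAC added, it was 12.88, 12.63, 11.93, 12.90 and 12.36 with the Npc1 oligo and 11.06, 10.59, 10.87, 10.19 and 11.06 with the control oligo. Neither pair of groups overlapped. The difference was 1.70 ± 0.16 without NAC (adjusted p = 7.07e-09) and 1.79 ± 0.16 with it (adjusted p = 1.78e-09), and the interaction of oligo and NAC was 0.09 ± 0.23 (adjusted p = 0.87, 95% interval -0.39 to 0.56). The 11-week genotype difference minus the oligo difference was -0.37 ± 0.28 (adjusted p = 0.36, 95% interval -0.93 to 0.20).

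Across the series, each of the 34 mice in the 8 groups without Npc1 or given the Npc1 oligo had more Apoa4 (11.50 to 12.90) than each of the 44 mice in the other 10 groups (9.54 to 11.34). Of the 12748 genes that passed the filter over all arrays, 9 had this property (0.0706%) and 0 had its reverse. Apoa4 was the only apolipoprotein gene among them. The other 8 were Clec7a, Ctsa, Ctsd, Ctsz, Hpgds, Renbp, Rragd and Uap1l1, named after their values were seen; Ctsa, Ctsd and Ctsz encode lysosomal cathepsins, Rragd a small GTPase of the lysosomal nutrient-sensing machinery, and Clec7a a receptor of macrophages and other myeloid cells. The other 10 groups include the control oligo with NAC, where Npc1 was also lower than with the control oligo alone. In the order of group means, the 8 groups without Npc1 or given the Npc1 oligo came first. They ran from 12.54 for the Npc1 oligo with NAC down to 11.77 for 7-week Npc1-/- mice, and the next was 11.04 in 9-week Npc1+/+ mice. Only 2 of the 17 neighbouring pairs in that order were further apart than the larger of their SDs: the pair across this step of 0.73, and 11-week and 9-week Npc1-/- mice.

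**Figure D1:**
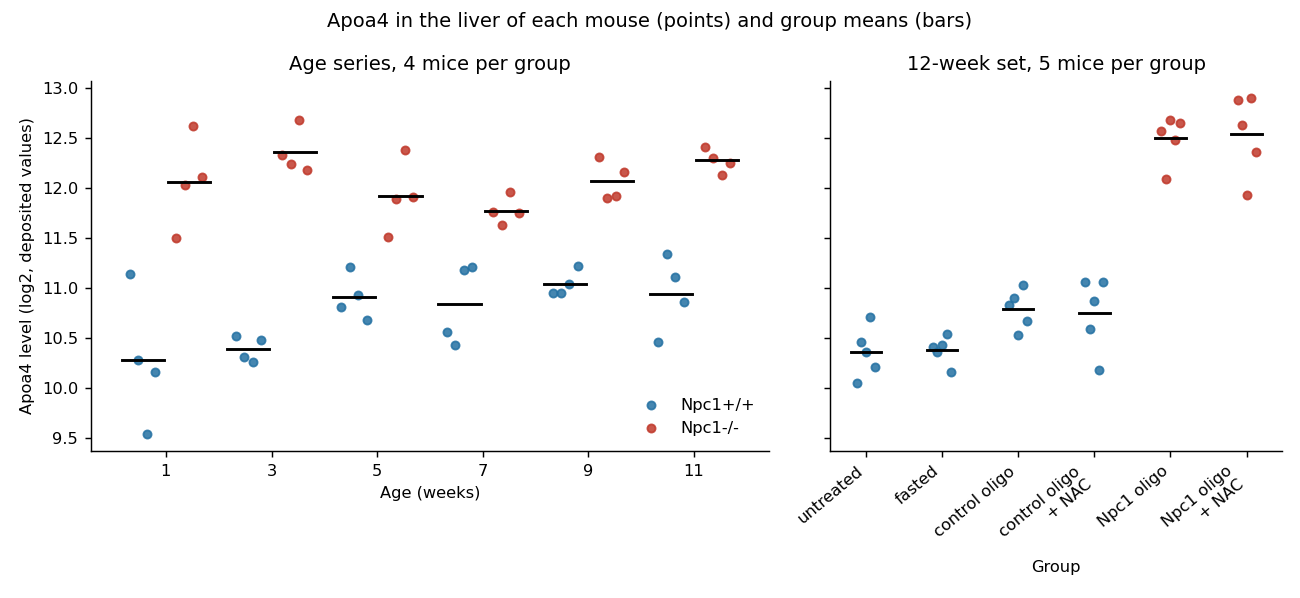
Apoa4 level (log2) in each mouse, by age and genotype (left) and in the 12-week groups (right); red points are mice without Npc1 or given the Npc1 oligo, blue points all others, and bars are group means. The lowest red point is 11.50 and the highest blue point 11.34.

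Macrophage markers were also called higher in Npc1-/- mice, from 2 of 8 at 1 week to all 8 at 11 weeks. Of 6 resident Kupffer cell markers, 2 were called lower at 1 week and 5 at 11 weeks (median -1.19), with 0 higher at either age. At 3 weeks 1 of them was called higher and 1 lower, and with the Npc1 oligo 2 were higher and 0 lower. The mean of 8 macrophage markers was 8.19 to 8.50 in 1-week Npc1-/- and 8.20 to 8.31 in 1-week Npc1+/+ mice, and 9.97 to 10.09 against 7.52 to 7.79 at 11 weeks. The mean of the 7 lipid-laden macrophage markers on the array was 6.44 to 6.86 against 6.13 to 6.24 at 1 week and 9.96 to 10.21 against 5.97 to 6.14 at 11 weeks. At 3 weeks, where the Apoa4 difference was largest, 6 of the 8 macrophage markers were called higher and the groups' means were 8.54 and 7.48, and the lipid-laden macrophage markers stood at 7.81 to 8.22 against 5.85 to 6.00. Of the 7 lipid-laden markers, 3 were called higher at 1 week and all 7 at each later age; their median difference was 0.33 at 1 week, 1.77 at 3 weeks and 4.20 at 11 weeks, and the Apoa4 difference 1.79, 1.97 and 1.33. In mice given the Npc1 oligo the lipid-laden markers stood at 7.94 to 9.19, and in the group with NAC at 6.90 in mouse 3 and 8.94 to 9.19 in the rest. Mouse 3 had the lowest Apoa4 of that group, 11.93. Intestine was checked because it makes Apoa4: the mean of 8 small intestine markers was 5.18 to 5.70 in all mice, with sucrase-isomaltase (Sis) at 2.86 to 3.29 and villin (Vil1) at 4.29 to 4.96, below the table's median of 5.54, and Fabp2 and Cdhr5 at 6.77 to 9.68 and 6.44 to 8.58. Only 2 of the 8 passed the filter in the 12-week set, Fabp2 and Cdhr5: both were called higher with the Npc1 oligo (median 0.59), and Fabp2 with NAC (median of the pair 0.41). In the age series 3 were tested, and 0 were called higher in Npc1-/- mice at any single age, while Krt20 was called lower at 1 week and Fabp2 at 7 and 11 weeks. The part of macrophages or intestine in the Apoa4 difference was not tested.

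**Figure D2:**
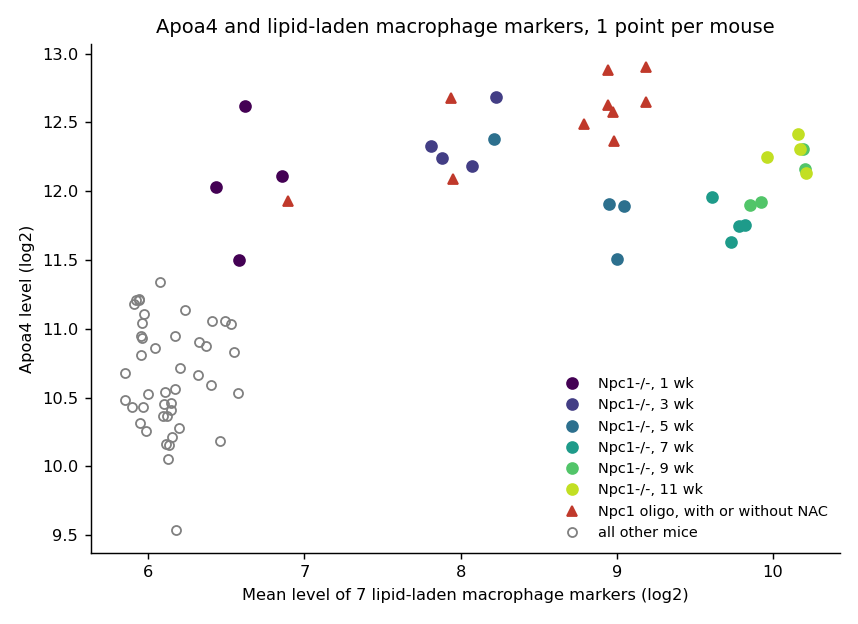
Apoa4 level (log2) against the mean level of 7 lipid-laden macrophage markers (log2), 1 point per mouse, with Npc1-/- mice coloured by age, Npc1 oligo mice as triangles and all other mice as open circles. The 1-week Npc1-/- mice have marker means of 6.44 to 6.86 and Apoa4 of 11.50 to 12.62, and the 11-week Npc1-/- mice marker means of 9.96 to 10.21 and Apoa4 of 12.13 to 12.42.

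Apoa4 was not called with fasting or with NAC. It was 10.41, 10.36, 10.43, 10.54 and 10.16 in fasted and 10.05, 10.46, 10.36, 10.71 and 10.21 in untreated mice, overlapping ranges with a difference of 0.02 ± 0.16 (adjusted p = 0.99, 95% interval -0.31 to 0.35). NAC gave differences of -0.04 ± 0.16 with the control oligo (adjusted p = 0.89) and 0.05 ± 0.16 with the Npc1 oligo (adjusted p = 0.92). The mice given the control oligo with NAC had Npc1 at 9.21, 9.96, 8.77, 9.04 and 8.96, a range that overlaps that of the Npc1-/- mice (7.97 to 9.20), and Apoa4 at 10.19 to 11.06. Apoa4 was higher with the control oligo than in untreated mice by 0.44 ± 0.16 (adjusted p = 0.047), with overlapping ranges; that call was lost under 21 of the 40 alternatives (adjusted p up to 0.125), and the macrophage markers also stood higher in this group (8.21 to 8.55 against 7.75 to 8.31), whose part was not tested.

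Counted over the family, 1 of the 9 genes was higher and 0 lower in Npc1-/- mice at 1 week, where 2.91% of all genes tested were higher and 2.78% lower. The 3-week mice had 1 gene higher and 2 lower (8.90% and 6.84% of all genes), and the 5-week mice 1 and 0 (9.69% and 2.88%). In the 7-week mice 1 was higher and 1 lower (14.3% and 11.0%), and in the 9-week mice 2 and 1 (17.6% and 15.5%). The 11-week mice had 1 higher and 5 lower (18.8% and 20.5%). In the mean over ages 1 was higher and 4 were lower (26.0% and 26.6%), and the genotype difference varied between ages for 2 (27.7%). The median difference of the 9 genes was -0.14 at 11 weeks, against -0.02 for all genes tested. Most of the lower calls were thus those of 11-week mice, and Apoa4 was among the higher ones at each age. At 9 weeks Apoa2, Apoc1 and Apoc3 were lower but missed the threshold (-0.19, -0.19 and -0.23, limma adjusted p = 0.0502, 0.059 and 0.082).

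**Figure D3:**
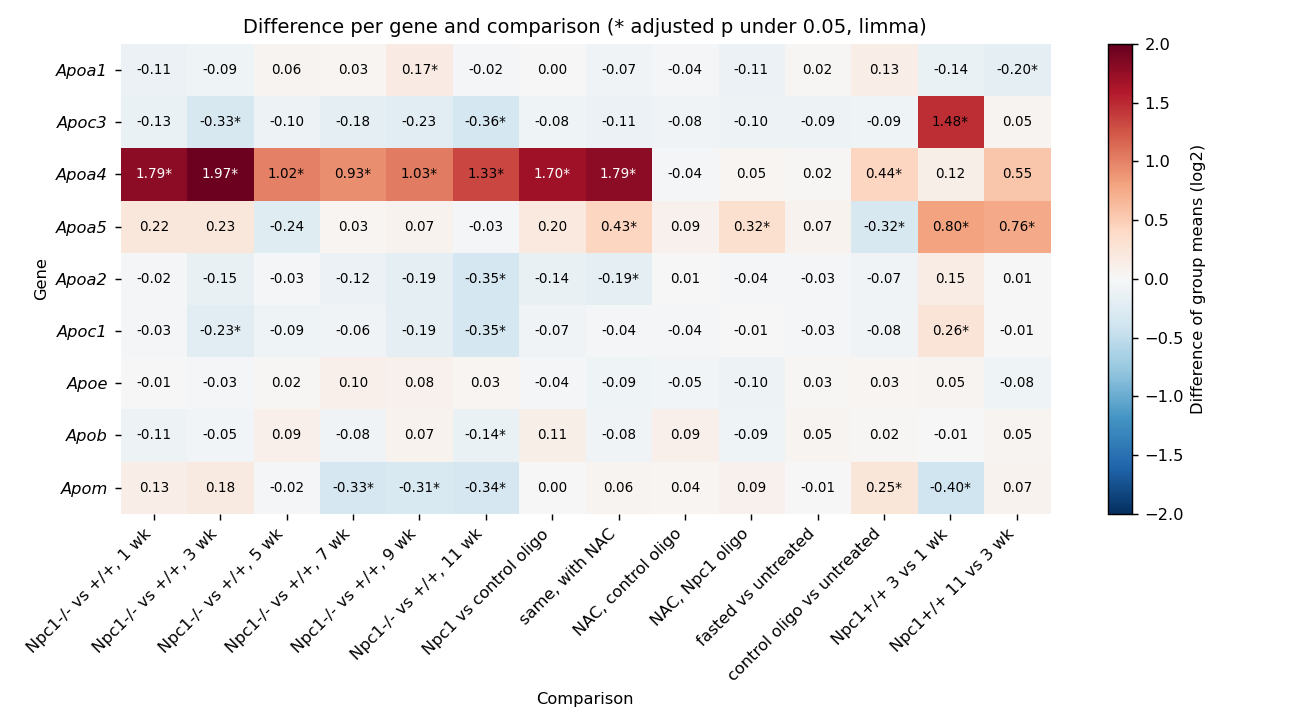
Difference of group means (log2; colour and number) for each of 9 apolipoprotein genes (rows) in 14 comparisons (columns), with an asterisk where limma's adjusted p was under 0.05. Apoa4 is higher in all 8 comparisons of Npc1 loss or knockdown, from 0.93 to 1.97, and the only other differences over 0.5 in size with an asterisk are those of Apoc3 and Apoa5 with age in Npc1+/+ mice.

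The chromosome 9 neighbours of Apoa4 had other patterns. Apoc3, which slows the removal of triglyceride by inhibiting lipoprotein lipase and remnant uptake, was called lower in Npc1-/- mice at 3 and 11 weeks and over all ages. At 1, 5, 7 and 9 weeks it was not called (-0.13, -0.10, -0.18 and -0.23, adjusted p = 0.57, 0.61, 0.22 and 0.082). At 11 weeks Apoc3 was 12.46, 12.54, 12.40 and 12.59 in Npc1-/- mice against 12.70, 12.91, 13.05 and 12.76, ranges that did not overlap. The difference was -0.36 ± 0.10 (adjusted p = 0.0046). At 3 weeks Apoc3 was 12.54, 12.44, 12.52 and 12.39 against 12.70, 12.81, 12.78 and 12.92, again apart, by -0.33 ± 0.10 (adjusted p = 0.024). The hepatocyte markers were lower in the same 3-week comparison: 5 of 7 were called lower, with a median difference of -0.22, and their mean was 12.68 to 13.06 against 13.05 to 13.21. Their part in the Apoc3 difference was not tested. At 11 weeks 2 of the 7 were called lower (median -0.07), and their means overlapped (12.82 to 12.97 against 12.89 to 13.07). The mean over ages was -0.22 ± 0.04 (adjusted p = 1.89e-05). The 3-week call was lost after quantile normalization (-0.16, adjusted p = 0.23) and without the pancreas-signal mice 1 and 2 (-0.37, adjusted p = 0.064); the 11-week and averaged calls were kept in every alternative run.

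Apoa1, which builds high-density lipoprotein and activates its cholesterol-esterifying enzyme, had no call in the mean over ages, with a genotype difference of 0.01 ± 0.03 (adjusted p = 0.87, 95% interval -0.05 to 0.06). At 9 weeks it was 13.40, 13.44, 13.36 and 13.35 in Npc1-/- against 13.22, 13.21, 13.16 and 13.31 in Npc1+/+ mice, 0.17 ± 0.06 higher without overlap (adjusted p = 0.044), a call lost under 13 of the 58 alternatives. At 1 week all Npc1-/- values (13.48 to 13.54) lay just below the Npc1+/+ range (13.54 to 13.69), with a difference of -0.11 ± 0.06 that missed the threshold (adjusted p = 0.40). The direction thus differed between these ages, and a variation of the difference with age was not called (adjusted p = 0.12).

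Apoa5, a low-abundance plasma protein that speeds triglyceride removal by lipoprotein lipase, had no genotype call at any age. Its mean difference over ages was 0.05 ± 0.06 (adjusted p = 0.52, 95% interval -0.07 to 0.16). In the 12-week set it was called in 3 comparisons. In the groups given NAC, Apoa5 was 11.86, 11.92, 11.82, 11.72 and 11.90 with the Npc1 oligo and 11.45, 11.40, 11.40, 11.41 and 11.39 with the control oligo. These groups did not overlap and differed by 0.43 ± 0.08 (adjusted p = 5.75e-05). Without NAC it was 11.61, 11.52, 11.49, 11.47 and 11.53 against 11.12, 11.44, 11.46, 11.59 and 11.00, overlapping, by 0.20 ± 0.08 (adjusted p = 0.053). That difference was called in several alternatives, among them quantile normalization (0.27, adjusted p = 0.014).

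Among mice given the Npc1 oligo, Apoa5 was higher with NAC than without it by 0.32 ± 0.08 (adjusted p = 0.0077, no overlap). With the control oligo the NAC difference was 0.09 ± 0.08 (adjusted p = 0.48), and the interaction, 0.23 ± 0.11, missed the threshold (adjusted p = 0.21), so the NAC differences under the 2 oligos were not shown to differ. The control oligo group stood below untreated mice, which had 11.71, 11.68, 11.61, 11.51 and 11.69, by 0.32 ± 0.08 (adjusted p = 0.0024); mice 1 and 5 given the control oligo were the lowest, and the ranges overlapped. The 3 calls of Apoa5 in the 12-week set were kept in every alternative run.

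Apoa2 and Apoc1 were lower in Npc1-/- mice at 11 weeks. Apoa2, the second protein of high-density lipoprotein, was 13.05, 13.21, 13.02 and 12.84 in 11-week Npc1-/- mice and 13.21, 13.42, 13.67 and 13.20 in Npc1+/+ mice, ranges that overlapped at 13.20 to 13.21. The difference was -0.35 ± 0.08 (adjusted p = 0.00029), and -0.14 ± 0.03 over all ages (adjusted p = 0.00019). Apoc1, which hinders receptor uptake of remnants, was 12.42, 12.44, 12.27 and 12.17 at 11 weeks against 12.50, 12.71, 12.95 and 12.54, without overlap. Its difference was -0.35 ± 0.08 (adjusted p = 0.00025), and -0.16 ± 0.03 over all ages (adjusted p = 3.52e-05). Both genes had their lowest Npc1-/- mouse in mouse 4 and their highest Npc1+/+ mouse in mouse 3; without Npc1-/- mouse 4 the differences were -0.28 (adjusted p = 0.00415) and -0.30 (adjusted p = 0.00299). At 3 weeks Apoc1 was 12.40, 12.46, 12.50 and 12.47 against 12.57, 12.61, 12.72 and 12.85, lower by 0.23 ± 0.08 (adjusted p = 0.033), beside the median of -0.22 of the hepatocyte markers at that age, whose part was not tested; the call was lost after quantile normalization (-0.08, adjusted p = 0.47). A variation of the difference with age was not called for either (adjusted p = 0.12 for Apoa2 and 0.13 for Apoc1).

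In the 12-week set, Apoa2 with the Npc1 oligo was 13.03, 13.03, 13.19, 13.20 and 13.16 against 13.29, 13.29, 13.16, 13.36 and 13.23, which overlapped and narrowly missed the threshold (-0.14 ± 0.05, adjusted p = 0.0503). With NAC it was 13.12, 13.12, 13.01, 13.09 and 13.08 against 13.25, 13.27, 13.37, 13.19 and 13.29, without overlap (-0.19 ± 0.05, adjusted p = 0.0075). In this comparison 4 of the 7 hepatocyte markers were also called lower (median -0.20), with means of 12.65 to 12.86 against 13.01 to 13.16, and their part was not tested. This call was lost after quantile normalization (-0.06, adjusted p = 0.51). Apoc1 differed by -0.07 ± 0.05 without NAC (adjusted p = 0.36) and by -0.04 ± 0.05 with it (adjusted p = 0.61). The 11-week genotype difference in Apoc1 was larger than the oligo difference by 0.28 ± 0.09 in the downward direction, a test with an adjusted p of 0.016; it was lost after quantile normalization (-0.15, adjusted p = 0.20).

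Apom, the lipoprotein carrier of the lipid mediator sphingosine 1-phosphate, had a genotype difference that varied with age. At 3 weeks it was 10.47, 10.45, 10.74 and 10.52 in Npc1-/- against 10.34, 10.28, 10.33 and 10.48 in Npc1+/+ mice, 0.18 ± 0.10 higher but not called (adjusted p = 0.23). At 7 weeks it was 10.04, 10.13, 9.94 and 10.16 against 10.26, 10.44, 10.52 and 10.39, lower by 0.33 ± 0.10 (adjusted p = 0.012). From 7 weeks on the genotypes did not overlap. The difference was -0.31 ± 0.10 at 9 weeks (adjusted p = 0.016) and -0.34 ± 0.10 at 11 weeks, when Apom stood at 10.02, 10.05, 10.21 and 10.07 against 10.53, 10.31, 10.40 and 10.45 (adjusted p = 0.0069). The variation with age was called (adjusted p = 0.0034), and the mean over ages was -0.11 ± 0.04 (adjusted p = 0.019). The direction held under quantile normalization, but the calls at 7, 9 and 11 weeks did not (-0.19, -0.24 and -0.09, with adjusted p of 0.20, 0.075 and 0.51), nor did that of the mean (-0.01, adjusted p = 0.88).

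Neither oligo comparison called Apom, with 0.00 ± 0.09 without NAC (95% interval -0.17 to 0.18) and 0.06 ± 0.09 with it (95% interval -0.12 to 0.23). The control oligo group (10.28, 10.01, 10.55, 10.42 and 10.44) stood above untreated mice (9.93, 10.15, 10.05, 9.97 and 10.35) by 0.25 ± 0.09, with overlap (adjusted p = 0.029); the call was lost when any 1 of 6 mice was left out (adjusted p up to 0.092). The 11-week genotype difference minus the oligo difference was -0.34 ± 0.13 (adjusted p = 0.049), a call lost under 44 of the 87 alternatives.

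Apob and Apoe, the structural protein of very low density lipoprotein and the ligand for remnant receptors, had the narrowest ranges of group means among the 9. Apoe group means ran from 13.45 to 13.66 over the 18 groups, and no comparison called it. By mean level Apoe stood above 99.99% of genes, and Apoa1 and Apoa2 above 99.96%. The highest Apoe value, 13.72, lay near those of the hepatocyte markers Alb (13.77), Ttr (13.77) and Ahsg (13.79). Whether the array narrows differences at such levels was not tested. At 7 weeks the Apoe values of Npc1-/- mice (13.62 to 13.72) lay above the Npc1+/+ range (13.51 to 13.60), uncalled (limma adjusted p = 0.31). The same held for Apoe at 9 weeks (13.61 to 13.63 against 13.49 to 13.59, adjusted p = 0.39). Its genotype difference over ages was 0.03 ± 0.03 (adjusted p = 0.34, 95% interval -0.02 to 0.09). Apob group means ran from 12.52 to 12.70. At 5 weeks its Npc1-/- values (12.65 to 12.69) lay above the Npc1+/+ range (12.52 to 12.64), uncalled (adjusted p = 0.32). Apob was 12.60, 12.60, 12.55 and 12.45 in 11-week Npc1-/- mice against 12.66, 12.74, 12.67 and 12.68, lower by 0.14 ± 0.06 without overlap (adjusted p = 0.046). That call was lost under 12 of the 58 alternatives, among them without Npc1-/- mouse 4 (-0.11, adjusted p = 0.18). In the oligo comparison Apob was 0.11 ± 0.05 higher and not called (adjusted p = 0.12). The genotype and oligo differences in Apob differed by -0.25 ± 0.07 (adjusted p = 0.0040), a call kept in every alternative run.

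**Figure D4:**
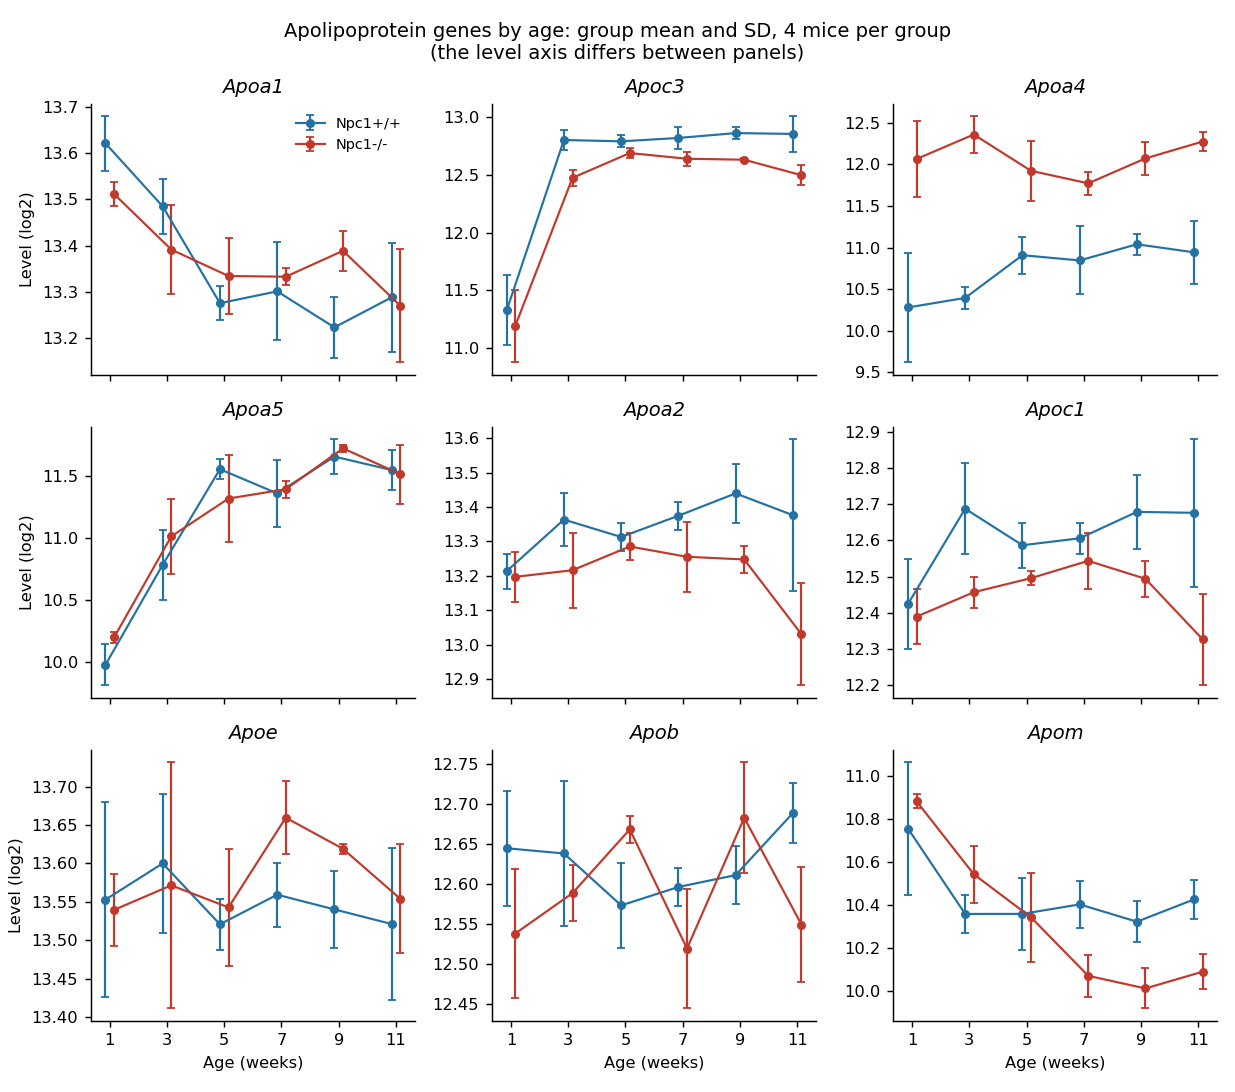
Level (log2) of each apolipoprotein gene against age in weeks, as the mean and SD of 4 Npc1+/+ mice (blue) and 4 Npc1-/- mice (red); the level axis differs between panels. Apoa4 is apart at each age and Apom parts from 7 weeks. In both genotypes Apoc3 climbs between 1 and 3 weeks, and Apoa5 between 1 and 5 weeks.

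In Npc1+/+ mice, which were weaned at 3 weeks, the moderated F test over the 6 ages called 6 of the 9 genes, a share not far from the 53.3% called over all genes tested. Apoa2, Apob and Apoe were not called (adjusted p = 0.15, 0.48 and 0.88). From 1 to 3 weeks 3 genes rose and 1 fell (15.4% of all genes higher, 21.5% lower). Over the same interval 7 of 8 macrophage markers fell and 2 of 7 hepatocyte markers rose, and their part was not tested. Apoc3 rose most: it was 10.89, 11.39, 11.59 and 11.44 at 1 week and 12.70, 12.81, 12.78 and 12.92 at 3 weeks, without overlap. The rise of 1.48 ± 0.10 (adjusted p = 1.19e-15) was 2.78-fold. From 3 weeks on its Npc1+/+ group means stayed at 12.79 to 12.86. The 11-week level differed from the 3-week one by 0.05 ± 0.10 (adjusted p = 0.82).

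Apoa5 rose over a longer span. It was 10.16, 9.99, 10.01 and 9.76 in Npc1+/+ mice at 1 week, 11.13, 10.90, 10.62 and 10.50 at 3 weeks, and 11.62, 11.57, 11.68 and 11.32 at 11 weeks. None of these 3 groups overlapped another. The rise was 0.80 ± 0.14 from 1 to 3 weeks (adjusted p = 9.54e-06) and a further 0.76 ± 0.14 from 3 to 11 weeks (adjusted p = 0.00015). At 3 weeks the higher values were those of mice 1 and 2, the arrays with pancreas signal; without them the first rise was still called (lowest value in any alternative 0.58, highest adjusted p 0.0057).

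Apom fell from 11.08, 10.77, 10.34 and 10.84 at 1 week to 10.34, 10.28, 10.33 and 10.48 at 3 weeks in Npc1+/+ mice, by 0.40 ± 0.10 (adjusted p = 0.0017), with mouse 3 of the 1-week group inside the 3-week range. Apoc1 rose by 0.26 ± 0.08 (adjusted p = 0.0056), from 12.52, 12.52, 12.27 and 12.38 to 12.57, 12.61, 12.72 and 12.85. Without mice 3 and 4 of the 1-week group, which had been numbered separately from mice 1 and 2 in their first names, it differed by 0.16 (adjusted p = 0.20). Apoa1 was highest at 1 week (13.62, 13.64, 13.54 and 13.69) and 13.15, 13.27, 13.43 and 13.30 at 11 weeks; between 3 and 11 weeks it fell by 0.20 ± 0.06 (adjusted p = 0.042), a call lost under 12 of the 59 alternatives. From 3 to 11 weeks 1 gene thus rose and 1 fell (6.44% and 3.74% of all genes). Apoa4 also varied with age in Npc1+/+ mice (F test, adjusted p = 0.0080), with 0.55 ± 0.22 between 3 and 11 weeks (adjusted p = 0.10).

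In the 12-week set, the Npc1 oligo called 1 of the 9 genes higher and 0 lower (14.7% and 7.88% of all genes tested), and with NAC 2 higher and 1 lower (11.0% and 14.7%). NAC called 0 genes with the control oligo (6.09% higher, 2.41% lower) and 1 higher with the Npc1 oligo (2.88% and 4.27%). The interaction called 0 (1.15% and 3.68%), and fasting called 0 (0.21% and 0.319%). At an unadjusted p under 0.05 in limma, 0 of the 9 genes passed for NAC with the control oligo and for fasting, and 2 for the interaction, Apoa5 (higher) and Apob (lower). The control oligo against untreated mice called 2 higher and 1 lower (5.05% and 21.3%), and the 11-week genotype difference minus the oligo difference called 3 lower (11.7% and 16.0%). The oligo comparison and that of the control oligo with untreated mice share the control oligo mice.

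The machinery around the apolipoproteins is given by lists chosen with earlier results of these data known. Of 19 genes of lipoprotein assembly and remodelling that were tested, 5 rose and 7 fell in Npc1-/- mice at 11 weeks (median -0.20, all genes -0.02), where 18.8% of all genes rose and 20.5% fell. The risers included Lpl, lipoprotein lipase (4.66 ± 0.21, adjusted p = 8.4e-23), Apobec1, which edits the Apob transcript (2.42 ± 0.11, adjusted p = 1.7e-22), and Sort1, a sorting receptor that binds Apob (2.08 ± 0.11, adjusted p = 2.3e-20). Lipg, endothelial lipase, fell by 2.16 ± 0.32 (adjusted p = 3e-07). At 1 week 0 rose and 3 fell (3 and 9 at an unadjusted p under 0.05 in limma; all genes 2.91% and 2.78%), among them Lcat, the cholesterol-esterifying enzyme that Apoa1 activates (-0.40 ± 0.08, adjusted p = 0.0018). The Npc1 oligo had 7 higher and 2 lower (all genes 14.7% and 7.88%), led by Apobec1 (0.95 ± 0.15, adjusted p = 2.3e-05) and Pltp, the phospholipid transfer protein (0.92 ± 0.14, adjusted p = 1.3e-05). Macrophages also make Lpl, and the macrophage and lipid-laden macrophage markers given above were higher in the same groups. Their part in these changes was not tested.

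Of 10 lipoprotein receptor genes tested, 2 rose and 4 fell at 11 weeks (median -0.05), the rises near the 18.8% of all genes and the falls above the 20.5%. Cd36, a scavenger receptor and fatty acid transporter, rose by 2.18 ± 0.19 (adjusted p = 8.8e-13) and Msr1, the macrophage scavenger receptor, by 1.01 ± 0.11 (adjusted p = 7.7e-10), while Lsr, a receptor for triglyceride-rich particles, fell by 0.47 ± 0.11 (adjusted p = 0.0005). With the oligo 2 rose and 1 fell (all genes 14.7% and 7.88%), and Cd36 was again the largest (1.07 ± 0.17, adjusted p = 3.8e-05). Of 12 other apolipoprotein and lipoprotein-bound protein genes, 2 rose and 6 fell at 11 weeks (median -0.32; all genes 18.8% and 20.5%), with Saa4, a constitutive serum amyloid A of high-density lipoprotein, at -2.43 ± 0.19 (adjusted p = 9.4e-15), Apon at -1.57 ± 0.14 (adjusted p = 2.7e-12) and Apof at -0.79 ± 0.08 (adjusted p = 3.7e-11). Apon was already lower at 1 week (-1.01 ± 0.14, adjusted p = 5.9e-06). The Npc1 oligo comparison called 0 of the 12 in limma, and 0 at an unadjusted p under 0.05.

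Of 20 regulators of apolipoprotein transcription, 1 rose and 10 fell at 11 weeks (median -0.38; 18.8% and 20.5% of all genes), and 2 rose and 15 fell in the mean over ages (median -0.23, all genes -0.01; 26.0% and 26.6% of all genes). At 11 weeks Srebf1, a driver of fatty acid synthesis genes, fell by 1.30 ± 0.27 (adjusted p = 9.3e-05), and Ppara, the receptor that turns on fatty acid oxidation, by 0.89 ± 0.18 (adjusted p = 9.4e-05). At 1 week only Srebf2, the main regulator of cholesterol synthesis, was called (0.50 ± 0.11, adjusted p = 0.0036; all genes 2.91% higher and 2.78% lower). In the oligo comparison 1 rose and 3 fell (all genes 14.7% and 7.88%): Srebf1 was lower by 1.85 ± 0.12 (adjusted p = 2e-12), and Hnf4a, a liver master regulator, rose by 0.37 ± 0.07 (adjusted p = 0.00026). Between 1 and 3 weeks in Npc1+/+ mice 9 rose and 1 fell (median 0.25; 15.4% and 21.5% of all genes), with Hnf4a at 0.72 ± 0.10 (adjusted p = 2.1e-07) and Rxra, the shared partner of many nuclear receptors, at 0.83 ± 0.11 (adjusted p = 5.2e-08).

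The genes whose group means ran most like those of each apolipoprotein gene differed from one to the next. Over the 18 group means, which share the mice of the same groups, Apoa4 ran most like Ctsz (Pearson r 0.90), Grn (0.90) and Tpi1 (0.88), Apoc3 like Cyp2c29 (0.99), Hebp1 (0.98) and Cyp27a1 (0.98), and Apoa5 like Abcc3 (0.95), Pigr (0.95) and Hnmt (0.95). Apoa2 ran most like Adra1b (0.94), Car3 (0.93) and Mlxipl (0.91), Apoc1 like Pex6 (0.93), Cyp4f15 (0.93) and Dalrd3 (0.93), Apom like E2f8 (0.90), Tspan18 (0.90) and H2bu1-ps (0.89), and Apoa1 like Ahsg (0.91), Vstm4 (0.90) and Ppic (0.89). Apoe and Apob reached only 0.72 (Bnip2), 0.69 (Dusp14) and 0.69 (0610009L18Rik), and 0.69 (Pnp), 0.67 (Oxsr1) and 0.66 (Rab2a). Among the apolipoprotein genes themselves, Apoa5 and Apoc3 ran together (0.85), Apoa1 and Apoa5 in opposite directions (-0.89), Apoa2 and Apoc1 together (0.77), and Apoa4 had -0.13 with Apoc3 and 0.16 with Apoa5, its neighbours on either side. In both genotypes the 1-week group was lowest for Apoc3 (means 11.33 and 11.19), with all other groups at 12.47 or more. It was also lowest for Apoa5 (9.98 and 10.20), with all others at 10.79 or more, and highest for Apoa1 (13.62 and 13.51). No r was taken without the 1-week groups, so the r values of these 3 genes may rest largely on them. All r values here are descriptions with no test.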

How the data were processed

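An Affymetrix mouse gene array was run for each of the 78 livers. The values used are the deposited log2 values of 35556 probe sets. The submitters' processing notes name RMA and Partek 6.5 without saying what each did, and how arrays were scaled to one another is not given in the sources used here. Array medians were 5.35 to 5.65, and no 2 arrays were identical. Per the labels' protocols, age-series livers were frozen, and 12-week livers were either frozen or stored in RNAlater.

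The platform's probe table gave 1 symbol for 21789 probe sets, several for 1621, and did not list 12146. The probe set with the highest mean stood for its gene. Genes were tested if at least 4 of the fitted arrays exceeded the overall median of 5.54: 12638 genes for the age series, 11900 for the 12-week set, 12748 for both together. All 9 genes with a value passed each time. Groups were fitted with limma 3.58.1 in R 4.3.3 (lmFit with 1 mean per group, then eBayes), once per set, and jointly for the 11-week genotype difference minus the oligo difference. Tests were two-sided, with Benjamini-Hochberg adjustment over all genes tested. The procedure was tested on simulated data.

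The genes and lists were chosen with earlier results of these data known. All 10 genes are named, and of each other list up to 4 genes past the threshold with the largest change in a comparison described, and for each gene the 3 most alike over group means. The labels do not say whether the replicate numbers pair the mice, and the main fits did not pair them. Deviations from the group means of same-numbered mice in 2 compared groups had r from -0.33 to 0.28, which does not settle it. Promoters are RefSeq's (GRCm38.p6), with entries for 7 of the 9 genes. Alternatives were quantile normalization, median centring, no filter or a stricter one, the mean of probe sets, a trended robust prior, array weights, a threshold of 0.01, a replicate block, only the compared groups, and each array or the doubted arrays left out. The number of mice limits the precision of an array.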

Additional observations from a re-analysis of the deposited data

Results flagged for a closer look

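Among 162 groups of values of the 9 genes, 2 held a mouse far from the rest, where chance marks about 1 group in 20. Apoc3 was 12.71 in Npc1+/+ mouse 1 at 5 weeks and 12.81 to 12.83 in the other 3 mice. Apoe was 13.47 in Npc1-/- mouse 3 at 1 week, the mouse with muscle signal, and 13.56 to 13.57 in the other 3. The genotype difference varied between ages for Apoa4 (moderated F test, adjusted p = 0.020) and for Apom (adjusted p = 0.0034). The 11-week genotype difference differed from the Npc1 oligo difference for Apob (adjusted p = 0.0040), Apoc1 (adjusted p = 0.016) and Apom (adjusted p = 0.049), all lower in the genotype comparison.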

How the results depend on the processing

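Of 46 calls of single genes, 28 were kept under every alternative run and 18 were lost under at least 1. Of 125 results not called, 22 were called under at least 1, and 0 called results changed sign. Counts of called apolipoprotein genes that moved by more than 1.5 times are given here, except that the replicate block is given in full. After quantile normalization the count went from 3 to 1 at 3 weeks, from 2 to 1 at 7 weeks, from 2 to 4 for the variation between ages, from 2 to 1 for 11 against 3 weeks in Npc1+/+ mice, and from 1 to 3 for the Npc1 oligo. Centring arrays on their median gave 5 in place of 3 at 9 weeks, 1 in place of 2 for 11 against 3 weeks in Npc1+/+ mice, 3 in place of 1 for the Npc1 oligo, 1 in place of 3 for the control oligo against untreated mice, and 5 in place of 3 for the 11-week genotype difference minus the oligo difference. A threshold of 0.01 left 1 at 3, 7 and 9 weeks, for the variation between ages, for 11 against 3 weeks in Npc1+/+ mice, for the control oligo against untreated mice and for the genotype minus the oligo difference. The trended robust prior and array weights each gave 5 at 9 weeks and 3 for the Npc1 oligo, where the stricter filter gave 3 and the mean of probe sets 2. For 11 against 3 weeks in Npc1+/+ mice, no filter, only the compared groups and the replicate block each gave 1. The block also gave 2 in place of 3 at 9 weeks (Apoa1 lost), 5 in place of 6 at 11 weeks, 2 in place of 3 for the control oligo against untreated mice and 2 in place of 3 for the genotype minus the oligo difference, and it changed no other count. Without the 3 arrays with muscle or pancreas signal, chosen after seeing the data, the variation between ages called 1.

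Leaving out each array in turn gave 1 to 3 at 3 weeks (1 without Npc1-/- mouse 4 or Npc1+/+ mouse 4), 1 to 2 at 7 weeks (1 without mouse 3 of either genotype), 1 to 5 at 9 weeks, 1 to 2 for 11 against 3 weeks in Npc1+/+ mice, 1 to 3 for the Npc1 oligo, 0 to 1 for the interaction, 1 to 3 for the control oligo against untreated mice and 1 to 4 for the genotype minus the oligo difference. The cause of these changes was not tested. The share of calls over all genes that were higher moved by over 10 points under a scaling in several comparisons: at 5 weeks from 77.1% to 64.5% (quantile), at 7 weeks from 56.5% to 43.2% (centred), at 9 weeks from 53.1% to 38.4% (centred), in the mean over ages from 49.4% to 37.6% (centred), for 11 against 3 weeks in Npc1+/+ mice from 63.2% to 48.8% (quantile), for the Npc1 oligo from 65.1% to 53.9% (quantile) or 75.7% (centred), for NAC with the control oligo from 71.6% to 50.8% (quantile) or 83.0% (centred), for the interaction from 23.8% to 49.0% (quantile), for the control oligo against untreated mice from 19.2% to 41.2% (quantile), and for the genotype minus the oligo difference from 42.2% to 26.7% (centred). No signal over background was available to set a limit of detection.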

Other observations

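In a few mice most of the 9 apolipoprotein genes were at one end of their group and the 3 mice named here, of 78, were at one end for the most genes. Mouse 3 of the group given the Npc1 oligo with NAC was the lowest of its 5 mice for 7 of the 9 genes, among them Apoa1 (13.11), Apoe (13.19) and Apoc3 (12.49), and it also had the lowest lipid-laden macrophage marker mean of its group, 6.90. Npc1+/+ mouse 3 at 1 week was the lowest of its 4 for 7 of the 9 genes, with Apoa4 at 9.54 and Apom at 10.34, while Apoc3 was highest there at 11.59. Npc1+/+ mouse 3 at 9 weeks was the highest of its 4 for 7 of the 9. Mice of 1 group were each compared only with the rest of that group, and no test was made.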
